A study of Mus musculus with 2 samples.

Results

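The microRNAs (miRNAs) of the imprinted Dlk1-Dio3 cluster were examined in small RNA from heart mitochondria, with both strands of each precursor included. They were chosen by name, as all entries whose miRNA number is one of 41 numbers known from this locus, under human (hsa) or mouse (mmu) names. The rule found 68 of the 1018 deposited entries, or of 851 that carry a miRNA name. Of the 68 entries, 48 had human and 20 mouse names, 26 were 5p and 41 were 3p strands, and 1 (miR-543) names no strand. No entry was listed for miR-496 or miR-539. One library came from cardiac mitochondria of an STZ group (streptozotocin, which kills insulin-producing beta cells and serves as a model of diabetes), and the other from cardiac mitochondria of a control group. The study concerns the argonaute protein Ago2 in diabetic cardiomyopathy. The sources used here give no strain, age, sex, STZ dose or time, and do not say how many hearts went into each library.

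The STZ library held 706860 assigned reads and the control 508182. Levels are in RPM, which scales each library to the same total of assigned reads, and a single read equals 1.41 RPM in the STZ library and 1.97 in the control. Muscle markers fit a muscle tissue, with 315086 RPM in the STZ library and 280496 in the control over 4 muscle miRNAs. They ranged from miR-208a-3p (76.4 RPM in the STZ library and 153 in the control) to miR-1-3p (252647 and 209319). Whether the sum sets heart apart from other muscle was not tested. How pure the mitochondria were was not tested. With 1 library per group there is no replicate error and no p-value, and "higher" and "lower" compare these 2 libraries, not the conditions. An entry is called higher or lower where log2(RPM + 1) differs by at least 2-fold and its mean is at least 10 RPM. Ratios carry exact 95% intervals, which cover counting error only, since reads amplified by PCR without molecular identifiers are not independent molecules. In such bulk material, fewer cells of a type and less RNA per cell cannot be told apart.

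The Dlk1-Dio3 domain carries protein-coding genes expressed from the paternal chromosome (Dlk1, Rtl1, Dio3) and long noncoding RNAs expressed from the maternal one (Meg3, Rian, Mirg and a transcript antisense to Rtl1). The miRNAs are processed from the maternal transcripts, as large groups of hairpins. Each hairpin is cut to a duplex of a 5p and a 3p strand, of which usually 1 is loaded into an argonaute protein and the other is degraded. These miRNAs are abundant in embryo and brain, and in mouse muscle the locus is activated by the transcription factor MEF2A. In RefSeq on GRCm38.p6, 41 precursors of the listed entries lie on the plus strand at chr12:109571990-109743795, a span of 172 kb. In order along the strand they form a group at Rtl1 (miR-673 to miR-136), a pair in introns of Rian (miR-341 and miR-370) and a large block from miR-379 to miR-410 that ends in Mirg. By the GENCODE annotation of GRCm38, miR-431, miR-433, miR-127, miR-434 and miR-136 lie opposite an exon of Rtl1. The deposited tables give names and no coordinates, and 62 of 68 entries matched a RefSeq mouse name.

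The mature mouse sequences of the entries on which the results turn are shown 5′ to 3′, with the seed (bases 2 to 8, which pair with targets) in capitals. They include the most abundant entries and those with at least 20 reads that were called, except miR-543, whose entry names no strand. miR-379-3p is added because it shares its seed with miR-411-3p. A human name in the table may stand for a human sequence, and only the RefSeq mouse sequence of the same name is shown.
miR-127-5p: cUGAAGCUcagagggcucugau
miR-127-3p: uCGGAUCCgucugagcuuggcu
miR-434-3p: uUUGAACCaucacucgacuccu
miR-136-3p: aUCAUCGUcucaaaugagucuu
miR-379-5p: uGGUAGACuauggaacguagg
miR-379-3p: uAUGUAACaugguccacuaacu
miR-411-5p: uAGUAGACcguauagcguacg
miR-411-3p: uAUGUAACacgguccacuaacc
miR-541-5p: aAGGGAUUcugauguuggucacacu

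The cluster was a minor part of both libraries. Its entries held 537 reads in the STZ library and 310 in the control, or 0.0760% (Wilson 95% interval 0.0698 to 0.0827) and 0.0610% (0.0546 to 0.0682) of reads. The summed level was 760 RPM in the STZ library and 610 in the control, a ratio of 1.25 (1.08 to 1.44). That ratio rests on few entries. Without miR-434-3p it was 1.09, and without the 5 entries with the most reads it was 0.804. Of the 68 entries, 39 had reads, 18 of them in both libraries, 13 in the STZ library alone and 8 in the control alone. Of all 851 named entries, 481 had reads, 319 in both libraries, 88 in the STZ library alone and 74 in the control alone. Such absence depends on read numbers, and entries of like read numbers are compared below. The 13 cluster entries seen in the STZ library alone held 76 reads together, and so did the 8 seen in the control alone. No cluster entry passed 92 reads in the STZ library or 41 in the control.

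**Figure D1:**
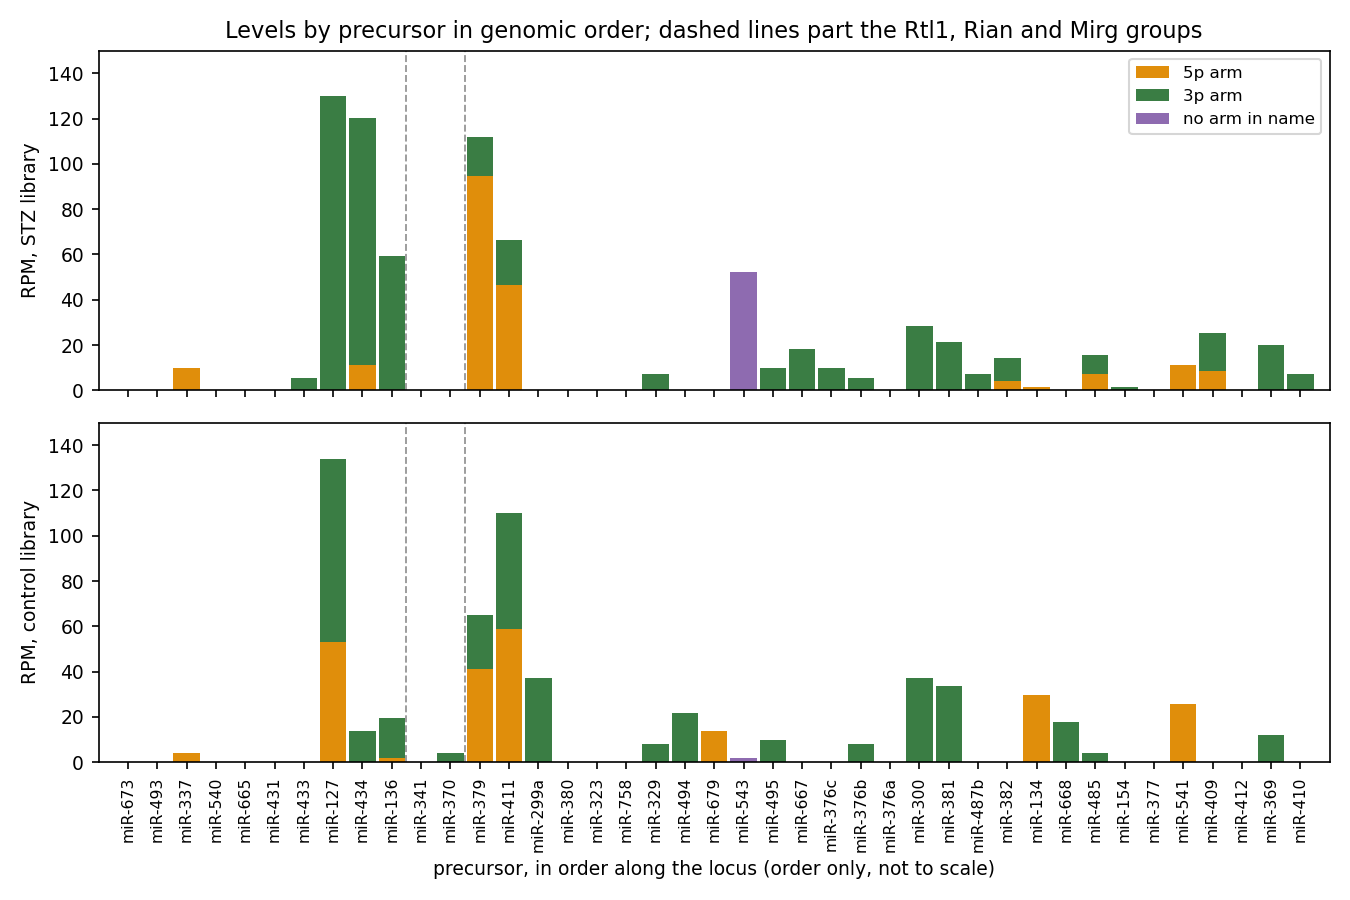
Level of each precursor (RPM, y axis) in the STZ library (top) and the control library (bottom), with the 41 precursors in genomic order on the x axis and the strands stacked by colour. The bars of miR-434 and miR-136 stand higher in the STZ library, the 5p part of miR-127 is seen in the control alone, and the block after Rian is mixed.

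Within the cluster, entries stood apart in both directions. Of 16 entries with a mean of at least 10 RPM, 4 were higher in the STZ library (miR-434-3p, miR-543, miR-136-3p and miR-379-5p) and 6 were lower (miR-127-5p, miR-299-3p, miR-494-3p, miR-134-5p, miR-411-3p and miR-541-5p). These are 25.0% and 37.5%, or 62.5% in either direction. Of the 314 named entries that pass the same minimum, 17.8% were higher and 18.5% lower, or 36.3% in either direction. Low entries differ more often, and 15 of the 16 had a mean under 100 RPM. At 10 to 100 RPM, 61.2% of all 165 named entries were called in either direction (31.5% higher, 29.7% lower), and 66.7% of the 15 cluster entries. The share of cluster entries called is thus close to that of other entries of their level. Where the interval also had to exclude 1, 9 of the 16 were called, 4 higher and 5 lower. That is 56.3%, against 32.2% of the 314. At 10 to 100 RPM it is 60.0% of the 15 cluster entries, against 53.3% of the 165. The median log2 fold was -0.42 over the 16, beside -0.02 over the 314. These counts depend on the minimum level: with none, 18 entries were higher and 11 lower, and the median was 0.70. Every entry with reads in 1 library alone is then called, even on 1 read, which takes in 13 of the STZ library and 8 of the control. No share of all named entries was computed at that setting, so its counts give no direction for the cluster. Of the 6 lower entries, 3 had 0 reads in the STZ library and so passed the minimum through the control alone. The same holds nearly in full for miR-134-5p, with 1 STZ read, and on the higher side for miR-543, with 1 control read. Passing the minimum is thus not independent of the difference. Since a read is worth more RPM in the control, the minimum kept miR-494-3p with 11 reads in the control alone but not miR-667-3p and miR-409-3p with 13 and 12 reads in the STZ library alone.

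**Figure D2:**
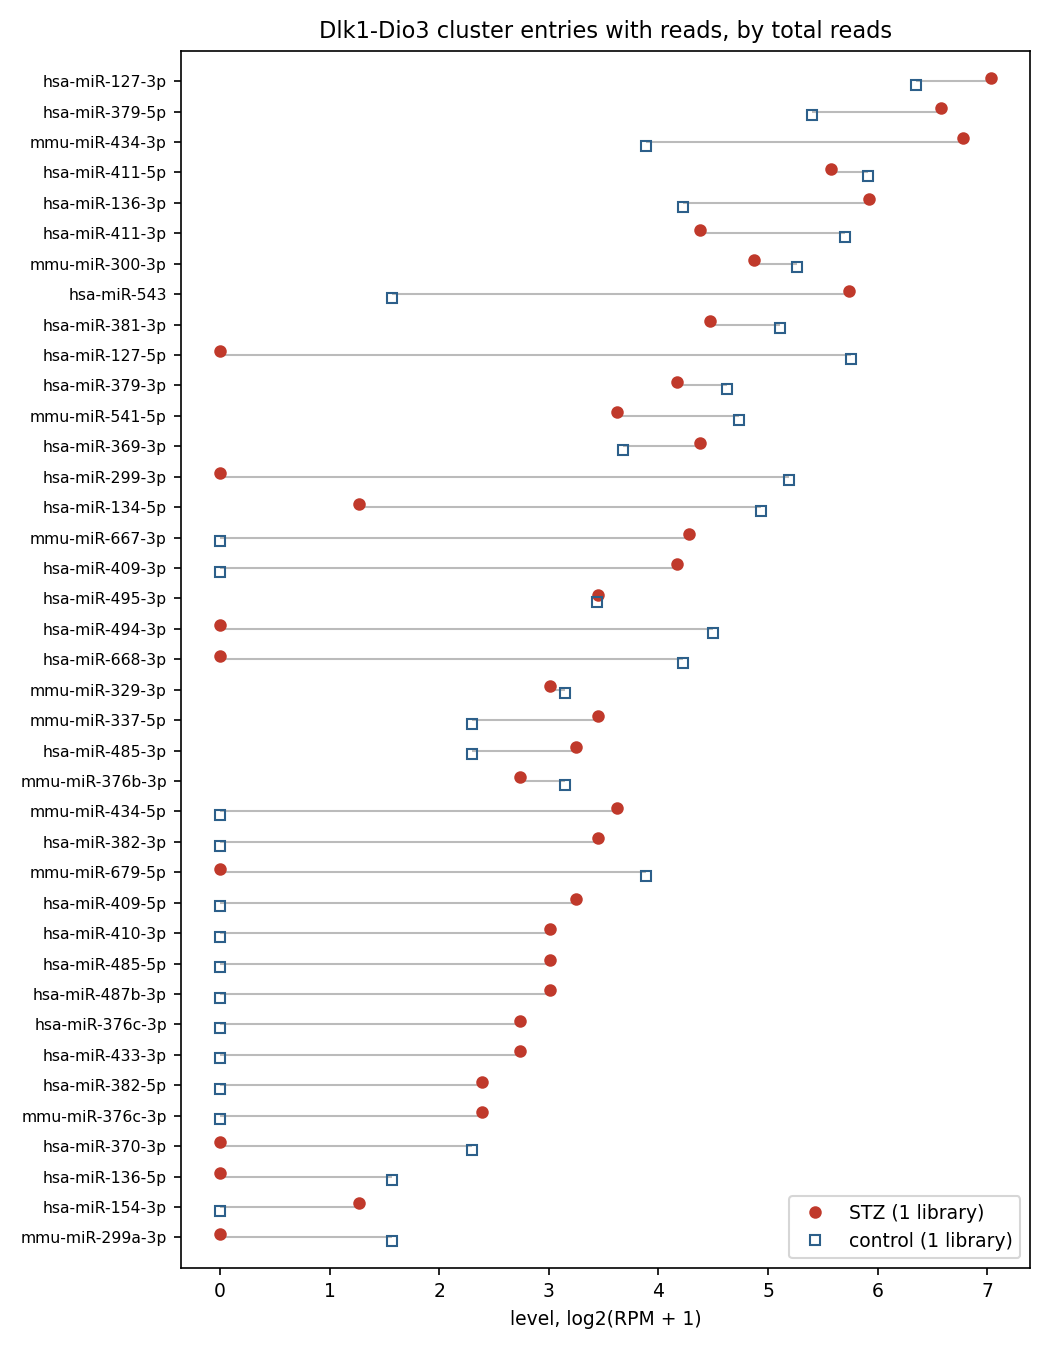
Level in log2(RPM + 1) (x axis) of the 39 cluster entries with reads, sorted by total reads (y axis), with a red circle for the STZ library and an open blue square for the control, 1 library each. Lines run in both directions, and 21 entries sit at 0 in either library.

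In the group at Rtl1, the 3 entries at the minimum level on 3p strands were above the control in the STZ library, and the 1 on a 5p strand was below it. miR-434-3p, from a hairpin opposite an Rtl1 exon, had 77 reads (109 RPM) in the STZ library and 7 (13.8 RPM) in the control. This is a ratio of 7.91 (3.66 to 20.3). Its partner strand miR-434-5p had 8 reads in the STZ library and 0 in the control. That is 1.92-fold higher against a floor of 3 control reads, with an exact interval from 1.23. The 5p strand was below the minimum level, so it was not called. Its fold against the floor was also under 2. Together the strands gave a ratio of 8.73 (4.06 to 22.4). Mir434 lies at chr12:109594506-109594599.

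The next hairpin, miR-136 (chr12:109595327-109595388), went the same way on its 3p strand. miR-136-3p had 42 reads (59.4 RPM) in the STZ library and 9 (17.7 RPM) in the control, a ratio of 3.36 (1.61 to 7.84). miR-136-5p had 0 reads in the STZ library and 1 in the control, so nearly all reads of this precursor named its 3p strand in both libraries.

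miR-127, which in mouse is antisense to Rtl1 and targets its message, was the cluster's most abundant precursor. Its guide miR-127-3p had 92 reads (130 RPM) in the STZ library and 41 (80.7 RPM) in the control, a ratio of 1.61 (1.10 to 2.39), under 2-fold. miR-127-5p had 0 reads in the STZ library and 27 (53.1 RPM) in the control. That is 12.5-fold lower against a floor of 3 STZ reads, with an exact interval from 9.50-fold lower. The strands thus stood on opposite sides of the control. Over both strands the precursor had 92 reads in the STZ library and 68 in the control (130 RPM in the STZ library and 134 in the control), a ratio of 0.973 with an interval of 0.703 to 1.35. The hairpin, at chr12:109592846-109592915, is shown with both mature strands in capitals, the 5p strand first.
miR-127 hairpin: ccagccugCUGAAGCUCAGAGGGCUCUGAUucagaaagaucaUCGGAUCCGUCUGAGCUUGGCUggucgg

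Further members of the Rtl1 group were near the limit of detection. miR-337-5p had 7 reads in the STZ library and 2 in the control, a ratio of 2.52 (0.479 to 24.8), and miR-433-3p, described as profibrotic in the heart, had 4 and 0. The listed strands of miR-673, miR-493, miR-540, miR-665 and miR-431, and miR-337-3p, were at 0 in both libraries. Over the whole group the level was 325 RPM (230 reads) in the STZ library and 171 (87 reads) in the control, a ratio of 1.90 (1.48 to 2.46). Its 3p entries gave 2.71 (2.02 to 3.70) and its 5p entries 0.359 (0.180 to 0.689). Without miR-434-3p the group's ratio was 1.37.

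Of the pair within Rian, miR-341-3p and miR-370-5p were at 0 in both libraries, and miR-370-3p had 0 reads in the STZ library and 2 in the control. No fold can be given for it at this depth.

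The block from miR-379 to miR-410 was level between the libraries in sum. It had 434.3 RPM (307 reads) in the STZ library and 434.9 RPM (221 reads) in the control, a ratio of 0.999 (0.837 to 1.19). Without miR-543 the ratio was 0.882, and without the block's most abundant entry 0.863, both within that interval. The sum covers entries that stood apart in opposite directions, with 2 of 12 entries at the minimum level higher and 5 lower. The precursors ahead of the annotated Mirg gene gave a ratio of 0.976 (0.800 to 1.19), and those within it 1.09 (0.735 to 1.62).

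miR-379-5p, from the first hairpin of the block (chr12:109709060-109709125), had 67 reads (94.8 RPM) in the STZ library and 21 (41.3 RPM) in the control. Its ratio was 2.29 (1.39 to 3.94). Its partner miR-379-3p had 12 reads in each library, a ratio of 0.719 (0.295 to 1.75). The neighbouring precursor miR-411 went the other way. miR-411-5p had 33 reads (46.7 RPM) in the STZ library and 30 (59.0 RPM) in the control, a ratio of 0.791 (0.468 to 1.34), and miR-411-3p had 14 (19.8 RPM) and 26 (51.2 RPM), 2.58-fold lower (1.30 to 5.35). Over both strands miR-379 had a ratio of 1.72 (1.13 to 2.67) and miR-411 one of 0.603 (0.401 to 0.905), and these intervals do not overlap. The 3p strands of miR-379 and miR-411 share 20 of 22 bases in mouse, so reads may have been split between them. The values of both 3p strands, both precursors and their strand shares are uncertain for that reason.

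miR-543 had 37 reads (52.3 RPM) in the STZ library and 1 (1.97 RPM) in the control. The ratio of 26.6 has a wide interval (4.49 to 1079), since it stands on a single control read. The mouse precursor has 2 strands in RefSeq and the entry names neither, so no sequence is shown for it.

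Further entries of the block had 0 or 1 reads in the STZ library and more in the control. miR-299-3p had 0 reads against 18 in the control (35.4 RPM), 8.35-fold lower against the floor of 3 reads (exact interval from 6.12-fold). Its mouse-named counterpart miR-299a-3p had 0 against 1. miR-494-3p, described as cardioprotective in mouse ischaemia, had 0 against 11 (21.6 RPM), 5.10-fold lower against the floor (exact interval from 3.49-fold). miR-668-3p had 0 against 9, 4.17-fold lower against the floor (exact interval from 2.75-fold), but its mean was under 10 RPM. miR-134-5p, which restrains growth of dendritic spines in rodent neurons, had 1 against 15 (1.41 RPM in the STZ library and 29.5 in the control), a ratio of 0.0479 (0.00114 to 0.312). miR-679-5p, below the minimum, had 0 against 7.

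miR-541-5p had 8 reads (11.3 RPM) in the STZ library and 13 (25.6 RPM) in the control, and its ratio of 0.442 had an interval that included 1 (0.159 to 1.15). miR-369-3p had 14 and 6 reads, a ratio of 1.68 (0.606 to 5.33). miR-300-3p had 20 reads in the STZ library and 19 in the control (0.757, 0.383 to 1.50), and miR-381-3p had 15 and 17 (0.634, 0.295 to 1.35). These last 2 are near copies in mouse as well, with 19 of 22 bases the same, so reads may have been split between them. Their values are uncertain for that reason.
miR-300-3p: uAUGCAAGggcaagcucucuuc
miR-381-3p: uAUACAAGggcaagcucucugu

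Higher in the STZ library but below the minimum level were miR-667-3p and miR-409-3p. miR-667-3p had 13 reads (18.4 RPM) in the STZ library and 0 in the control. That is 3.12-fold higher against a floor of 3 control reads (exact interval from 2.19-fold). miR-409-3p had 12 (17.0 RPM) and 0, 2.88-fold higher against that floor (exact interval from 1.998-fold). miR-409-5p had 6 and 0 reads, and the precursor over both strands 18 and 0. The strands of miR-382 showed the same pattern with 7 (3p) and 3 (5p) reads in the STZ library and 0 in the control. miR-410-3p, which together with miR-495-3p promotes proliferation of rodent cardiomyocytes, had 5 reads in the STZ library and 0 in the control, and miR-495-3p had 7 and 5, a ratio of 1.01 (0.275 to 4.02). miR-485-5p and miR-487b-3p had 5 and 0, and miR-485-3p had 6 and 2. Among the miR-376 family, whose seeds are known to be altered by RNA editing, the mouse-named miR-376b-3p had 4 reads in each library and miR-376c-3p 7 and 0 over its human and mouse names. miR-329-3p had 5 and 4 reads, and miR-154-3p had 1 and 0.

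**Figure D3:**
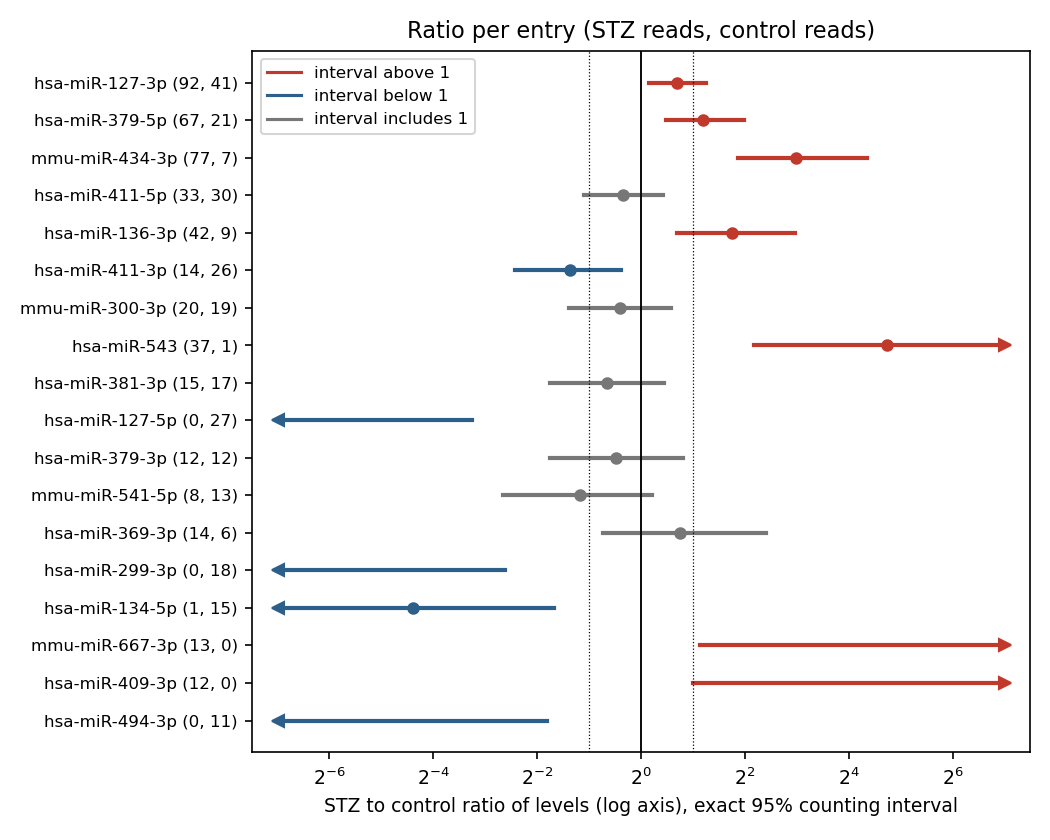
STZ to control ratio (log x axis) with its exact 95% counting interval for the 18 entries named by rule, with STZ and control reads beside each name (y axis). Arrows mark intervals that run past the axis or start at 0, entries without a dot have 0 reads in 1 library, red marks intervals above 1 and blue those below 1, and dotted lines stand at 2-fold.

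In the range of 5 to 19 reads over both libraries, 12 of 18 cluster entries (66.7%) were at 0 in 1 library, with 4 at 0 in the STZ library and 8 in the control. Among all 122 named entries in that range the share was 56.6%, with 30 at 0 in the STZ library and 39 in the control. Among all 397 named entries with at least 5 reads, 8.06% were at 0 in the STZ library and 11.8% in the control. Absence from 1 library is therefore common at these read numbers in the whole table. The remaining 29 cluster entries had 0 reads in both libraries, which allows up to 4.24 RPM in the STZ library and 5.90 RPM in the control.

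Both strands could be set against each other in 3 precursors with at least 20 reads on each strand. Such a comparison is free of how the libraries are scaled. The miR-127 hairpin had 0 of 92 reads on its 5p strand in the STZ library and 39.7% (Wilson interval 28.9 to 51.6) in the control. Its 5p strand met the minimum through the control's 27 reads alone, so its entry here was not independent of the difference. The Wilson upper bound of the STZ share was 4.01%, and a limit of 3 reads of the 92 is 3.26%. The odds ratio of 5p to 3p was 0, with an upper bound of 0.0706. In miR-379 the 5p share was higher in the STZ library, with 84.8% (75.3 to 91.1) in the STZ library and 63.6% (46.6 to 77.8) in the control, an odds ratio of 3.15 (1.11 to 9.02). miR-411 had 70.2% and 53.6%, and its odds ratio of 2.03 had an interval that included 1 (0.840 to 5.05). By a 2-fold rule with an interval excluding 1, 2 of the 3 differed, in opposite directions, and the miR-379 and miR-411 shares carry the doubt about their near-identical 3p strands. Of all 52 precursors with that many reads, 34.6% differed, 26.9% with more 5p in the STZ library and 7.69% with more 3p.

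Over the whole cluster, 27.6% (23.9 to 31.7) of strand-named reads were 5p in the STZ library and 37.5% (32.3 to 43.1) in the control, an odds ratio of 0.635 (0.464 to 0.869). Without miR-127 the shares were 33.8% and 36.9%, and the odds ratio of 0.873 had an interval that included 1 (0.618 to 1.24). The lower 5p share therefore rests on miR-127. In the Rtl1 group 6.52% of strand-named reads were 5p in the STZ library and 34.5% in the control, and in the block from miR-379 to miR-410 45.6% and 39.1%. The block's shares leave out miR-543, with 37 reads in the STZ library and 1 in the control. For all named entries the shares were 43.3% and 43.0%.

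The Rtl1 group and the block after Rian, both expressed from the maternal chromosome, differed in their ratios. The STZ to control ratio of the Rtl1 group was 1.90 times that of the block (exact interval of the odds ratio 1.39 to 2.61), a value free of the scaling. For 3p strands alone it was 3.44 times (2.33 to 5.10). The 3p value leaves out miR-543 (37 reads in the STZ library and 1 in the control), whose entry names no strand. It was not recomputed with other entries left out. Without miR-434-3p the first value was 1.38 and its interval included 1 (0.987 to 1.93), and without both miR-434-3p and miR-543 it was 1.56 (1.11 to 2.19). Without miR-127-5p it was 2.76 (1.96 to 3.92).

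Seeds were shared by few of the matched entries. miR-379-3p and miR-411-3p have the same 7 seed bases and 20 of 22 bases in common, and together had 26 reads in the STZ library and 38 in the control, a ratio of 0.492 (0.287 to 0.832). miR-376b-5p and miR-376c-5p form the other pair and had no reads. The guide strands miR-379-5p and miR-411-5p agree in 6 of 7 seed bases and had ratios on either side of 1.

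Other miRNAs of the locus and of other imprinted loci were read from lists of names. Of 3 further entries from this locus, 1 had a read, miR-1193-3p, with 0 in the STZ library and 1 in the control. Of 24 entries from other imprinted loci, 4 had reads. miR-335-5p, from an intron of the imprinted gene Mest, had 983 RPM in the STZ library and 1681 in the control, a ratio of 0.585 (0.529 to 0.647), and miR-335-3p had a ratio of 0.929 (0.706 to 1.23). Neither miR-335 strand was 2-fold apart. Below the minimum level, miR-467d-5p had 9 reads in the STZ library and 0 in the control (exact interval from 1.42), and miR-467e-5p had 1 and 0.

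Markers of other cell types also differed in summed level. The 3 neural markers with reads, of 4, had 1600 RPM together in the STZ library and 1108 in the control (ratio 1.44, 1.30 to 1.60), nearly all from miR-128-3p and miR-9-5p, while miR-124-3p, which defines neurons, had 0 reads in the STZ library and 1 in the control. Both endothelial markers stood at a summed ratio of 0.658, both red cell markers at 0.526, all 3 liver markers at 0.277, all 4 smooth muscle and fibroblast markers at 0.849 and all 4 muscle markers at 1.12. Members of a list did not all go with its sum. Among muscle markers, miR-1-3p had a ratio of 1.21 and miR-499a-5p 1.07, while miR-133a-3p had 0.866 (0.854 to 0.879) and miR-208a-3p 0.498 (0.345 to 0.713). In the smooth muscle and fibroblast list, miR-214-3p had 1.56 (1.17 to 2.11) and miR-199a-3p 0.991 (0.926 to 1.06). Their part in the cluster's differences was not tested.

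**Figure D4:**
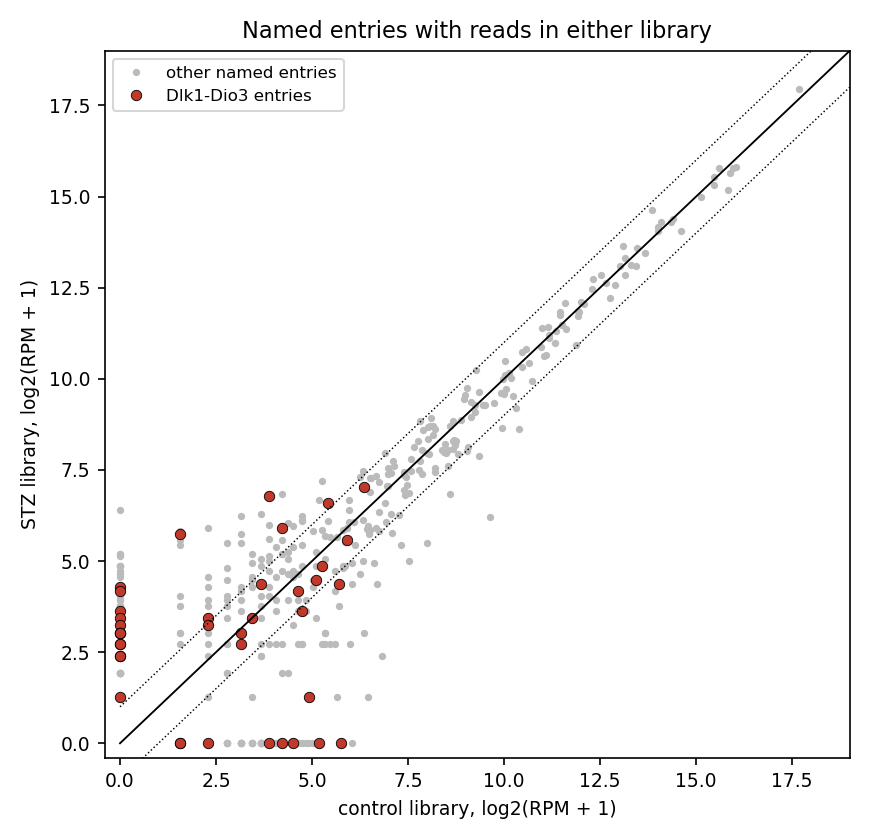
Named entries with reads in either library, with the STZ level (y axis) against the control level (x axis), both as log2(RPM + 1). Cluster entries (red) lie among other entries of the same level (grey), at the low end where points spread far past the dotted 2-fold lines on either side of the line of equality.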

How the data were processed

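Small RNA of heart mitochondria was compared between 1 STZ and 1 control library, grouped by the labelled treatment. Per the labels' protocols, adapters were ligated to total RNA and the cDNA amplified by PCR. The submitters' processing notes name GRCm39. For the aligner and the miRNA reference, the sources used here name none. The signal deposited by the authors is in RPM. An unnamed entry that sums the entries above it (96.6% of the STZ total and 96.5% of the control) was left out. Dividing by the step of 1 read gave whole reads for 100% of values (within 0.01 read). With 1 library per group there are no residual degrees of freedom, so no test was fitted and 0 entries have a p-value. Intervals of ratios are conditional binomial (Clopper-Pearson), and those of odds ratios exact conditional. Reads of human-named and mouse-named entries were summed for precursors. Folds against 0 use a floor of 3 reads per library. They take the other library's reads without counting error, so the exact interval can start nearer to no difference. Entries named in full have at least 20 reads, a call, or at least 10 reads in 1 library and 0 in the other. The members, lists, groups and thresholds were chosen with earlier results of these data known. Scripts were tested on simulated reads. Python 3.11.15, scipy 1.17.1, R 4.3.3, edgeR 4.0.16 (TMM) and DESeq2 1.42.0 (median of ratios) were used.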

Additional observations from a re-analysis of the deposited data

How the results depend on the processing

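No paired analysis was possible because STZ and control were represented by 1 library apiece, so none could be left out either. Scaling by TMM, by median of ratios, or over miRNAs below the top 10, shifted log2 ratios by 0.03, 0.01 and -0.01, left the counts at 4 higher and 6 lower, and kept each summed ratio within its interval. With no minimum level, where even 1 read against 0 is called, the counts became 18 higher and 11 lower and the median log2 fold 0.70. At a mean of 100 RPM 0 were higher and 0 lower, and the median was 0.68, from a single entry. With at least 20 reads over both libraries, or with reads required in both, 3 were lower, and at 4-fold 2 were higher. Without miR-434-3p the ratio of the Rtl1 group was 1.37, and without the 5 most abundant entries that of the cluster was 0.804. Without miR-127 the 5p share in the STZ library was 33.8%. Of 90 recomputed log2 folds of the 18 entries named by rule, 0 changed sign among called ones, and 1 call was lost, miR-541-5p at a pseudocount of 5 (log2 -0.91). No precursor had 50 reads on each strand. Strands could not be assigned to miR-543, as RefSeq has both. The Rtl1 group's ratio over that of the block was 1.38 without miR-434-3p and 2.76 without miR-127-5p. Chosen after the data were seen were this contrast, leaving out miR-434-3p, miR-543, miR-127-5p or the 5 most abundant entries, requiring reads in both libraries, setting entries at 0 to the floor, and taking the 5p share over entries with at least 20 reads. The Rian pair had no reads left without its most abundant entry. Depth limits most entries: 3 reads equal 4.24 RPM in the STZ library and 5.90 in the control.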
